A study of Mus musculus with 10 samples.

Results

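The 47 genes described here encode the hepatic machinery of glucose and glycogen metabolism together with the main insulin and glucagon signalling components. They were chosen by name, from 7 roles: gluconeogenesis, glycolysis with fructose entry, sugar carriers, glycogen synthesis and breakdown, the pentose phosphate pathway, pyruvate dehydrogenase control, and hormone signalling. All 47 were found among the 55401 gene identifiers of the count files, and all 47 were among the 12234 genes with enough counts to be tested. The rule that names them uses no measured value, but the list was drawn up with earlier results of these data known.

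RNA was sequenced from whole liver of 5 wild-type mice and 5 mice lacking Thrb in the liver (Thrb hep-/-). Labels give the strain as C56Bl6/J in one field and C57Bl6/J in another, list no treatment for either genotype, and describe the controls as littermates. The study lists the deletion as a cross of floxed Thrb mice with a Cre line driven by the Afp promoter, which is active in the fetal liver. The sex, age, hour of collection and feeding state of these mice are not given in the sources used here, and feeding state is known to move many of the genes below. Each library was read as 1 mouse, and the p-values judge the genotype difference against the spread between these libraries.

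Between meals the liver releases glucose, first by breaking down glycogen and then by making new glucose from lactate, glycerol and amino acids. After a meal insulin shifts the same cells to glycogen storage and glycolysis, while glucagon, acting through its receptor and cAMP, favours glucose output. Thyroid hormone acts through nuclear receptors, of which THRB is the main hepatic form. It is known to raise hepatic glucose production, and Pck1, G6pc and the glucose carrier gene Slc2a2 are among the genes it can induce.

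The targeted gene was lower in every library labelled knockout, but only by a small margin. Thrb stood at 33.4, 34.2, 32.5, 33.5 and 32.9 normalized CPM (counts scaled to library size by TMM) in wild-type mice 1 to 5, and at 25.1, 24.9, 28.7, 25.9 and 28.8 in Thrb hep-/- mice 1 to 5. The 2 groups did not overlap, and their means were 33.3 ± 0.643 and 26.7 ± 1.93 normalized CPM (SD, n = 5 each; exact two-sided permutation p = 0.0079, the smallest that 5 against 5 allows). A count over the whole gene includes any transcript made from the exons that remain. The classical hormone target Dio1, a deiodinase gene, ran from 141 to 208 normalized CPM in wild type and from 13.8 to 25.9 in Thrb hep-/-.

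Total counts ran from 26477195 to 28590704 per library, and 3 counts, the limit that a count of 0 allows, corresponded to between 0.105 and 0.113 CPM. Intervals and limits of this kind cover counting error only. The 8 hepatocyte markers summed to between 110580 and 152180 normalized CPM in every library. In 3 of the 10 libraries, all Thrb hep-/- (mice 1, 4 and 5), the adipocyte genes Adipoq and Plin1 were present at 3.37 to 7.12 and 5.0 to 6.97 normalized CPM. Both were at 0 in the other 7 libraries, except for 1 count of Adipoq in Thrb hep-/- mouse 3, and fold changes of the genes closest to a difference are also given without these 3 libraries. The 23 tested acute-phase genes were all lower in Thrb hep-/- and 13 of them passed the test, with summed levels of 36849 to 85484 normalized CPM in wild type and 24286 to 40720 in Thrb hep-/-. In bulk tissue, fewer cells of a type and less RNA per cell cannot be told apart.

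No member passed the threshold, an adjusted p of 0.15 by the quasi-likelihood F-test of edgeR, adjusted after Benjamini and Hochberg for every tested gene. Over all 12234 genes 499 passed it, which is 4.08%, with 185 higher (1.51%) and 314 lower (2.57%) in Thrb hep-/-. At an unadjusted p under 0.05, 4 of the 47 members were counted, all of them higher in Thrb hep-/-, against 1659 of all genes (13.6%), of which 752 were higher (6.15%). Those 4 were Gys2, Ugp2, Tkt and Pdha1. In none of the 47 did the 5 wild-type and 5 Thrb hep-/- values separate without overlap, beside 3.64% of all tested genes. A list this short cannot show a difference from that share. Fold changes were positive for 28 members and negative for 19, and their median was 0.040 on the log2 scale beside 0.00054 over all genes.

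Most differences were small and many were bounded tightly, as they were over all tested genes. The fitted log2 fold change lay within 0.2 of zero for 39 of the 47 members and for 8743 of the 12234 tested genes. The 95% interval lay inside -0.5 to 0.5 for 35 members and inside -1 to 1 for 44, so for these a change beyond that size was outside the interval. Over all tested genes the same counts were 8014 and 11246. The lowest fold change was -0.34, for Pfkfb1. The highest was 1.51, for Ppp1r3g, the least abundant member, which entered the test mainly through Thrb hep-/- mice. With DESeq2 Gys2 and Ugp2 passed the same threshold (885 genes, 7.23% of all tested), and with limma-voom Gys2, Ugp2 and Tkt did (880 genes, 7.19%). Leaving out single mice also moved the count, since Ugp2 passed without Thrb hep-/- mouse 1 (5.47% of all genes passed) or wild-type mouse 1 (3.98%), Tkt without Thrb hep-/- mouse 2 (5.02%) and Gys2 without wild-type mouse 4 (4.18%). No member passed without Thrb hep-/- mouse 4 (2.84%) or 5 (3.2%) or wild-type mouse 3 (3.37%), with DESeq2's size factors in edgeR (4.11%), or without the filter on low counts (2.3%). Over all genes the number of calls fell to 222 (1.82%) without Thrb hep-/- mouse 3, 227 (1.87%) without wild-type mouse 2 and 239 (1.97%) without wild-type mouse 5, and no member was among them.

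**Figure D1:**
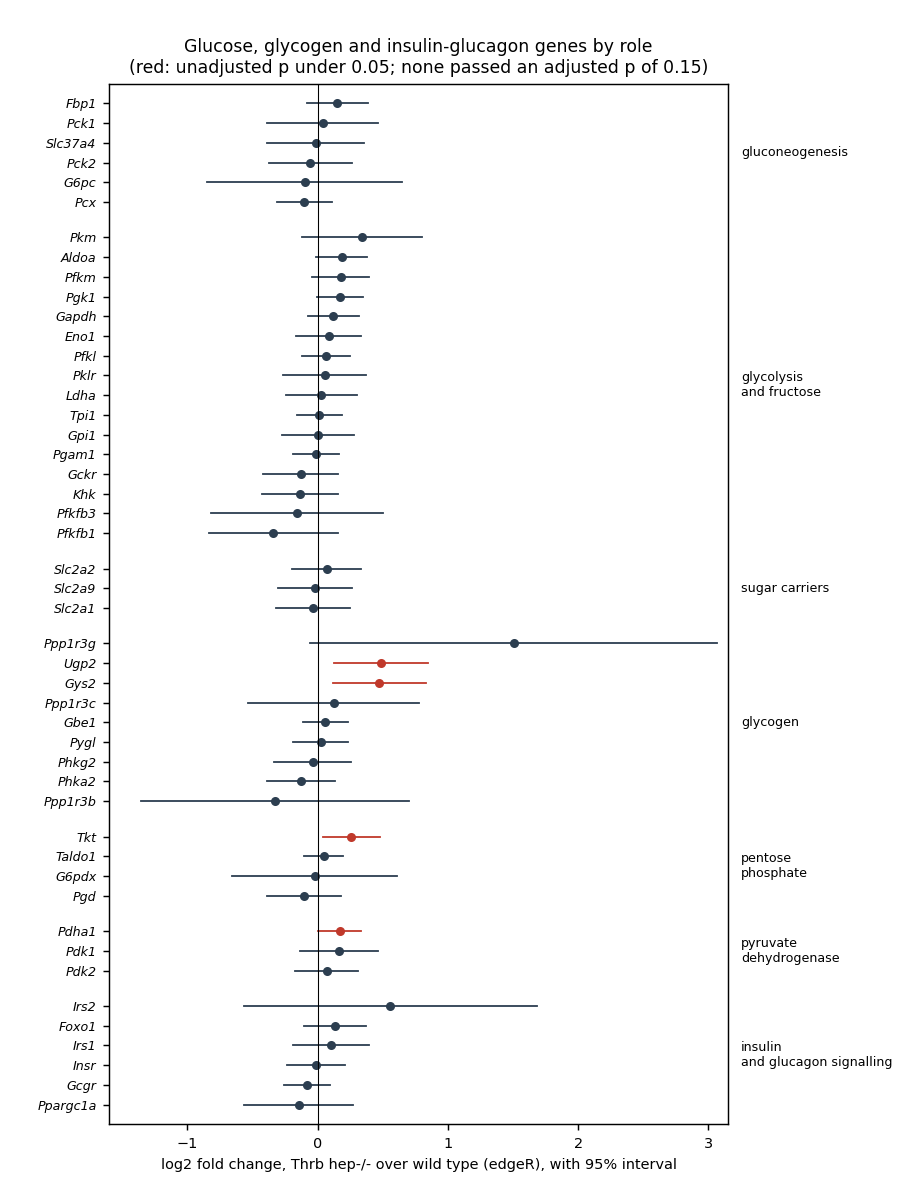
Log2 fold change (x axis) of each of the 47 genes, grouped by role, with points for the edgeR estimate and lines for the 95% interval. The intervals of the 4 red genes, Gys2, Ugp2, Tkt and Pdha1, exclude zero before adjustment, and no gene passed an adjusted p of 0.15.

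Start-site sequences show what a thyroid hormone receptor could meet near these genes. RefSeq promoters on GRCm38.p6, from 250 bases before to 50 after a start, were matched for 44 of the 47 members (65 promoters). The receptor's half-site AGGTCA was found on either strand in 14 of the 65 (21.5%), against 16.3% of all 32851 promoters. Its direct repeat with 4 bases between the copies, the classical thyroid hormone element, occurred in none of the 65 and in 0.0152% of all promoters. The E-box CACGTG was in 13.8% of member promoters and 7.15% of all, the cAMP half-site TGACG, which the full element TGACGTCA contains, in 24.6% and 20.8%, and the full element in 1.54% (Ldha) and 1.79%. The forkhead letters TGTTTAC were in none of the 65 and in 3.65% of all, and the E-box repeat with 5 bases between the copies was in no promoter at all. These matches are a description of letters in a window and not of binding.

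The 3 stretches below belong to members with a defining role. They end before the first annotated transcript base, and capitals mark the half-site, on the strand where it was read. In Pklr (chr3:89135971-89136090, plus strand) and Slc2a2 (chr3:28697783-28697902, plus strand) the capitals are the thyroid half-site, which in Pklr reads on the opposite strand. In Pck1 (chr2:173152928-173153047, plus strand) they are the cAMP half-site, also on the opposite strand, whose first base lies 90 bases before the RefSeq start.
Pklr: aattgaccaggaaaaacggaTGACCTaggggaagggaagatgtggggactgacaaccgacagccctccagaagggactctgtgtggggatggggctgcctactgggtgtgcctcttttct
Slc2a2: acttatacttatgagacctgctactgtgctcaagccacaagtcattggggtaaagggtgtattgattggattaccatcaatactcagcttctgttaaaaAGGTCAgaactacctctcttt
Pck1: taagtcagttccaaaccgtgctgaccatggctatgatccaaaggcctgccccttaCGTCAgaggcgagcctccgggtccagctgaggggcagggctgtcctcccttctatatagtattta

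The 6 gluconeogenic members showed no difference beyond the spread between mice. Pck1 encodes the cytosolic phosphoenolpyruvate carboxykinase that commits oxaloacetate to glucose synthesis. It was at 3885, 2132, 3322, 2412 and 2636 normalized CPM in wild-type mice 1 to 5 and at 3859, 2872, 2867, 1956 and 3238 in Thrb hep-/- mice 1 to 5. The highest value of each group was nearly the same and the ranges covered each other. The log2 fold change of Pck1 was 0.040 (SE 0.20, 95% interval -0.39 to 0.47, edgeR adjusted p = 0.957).

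G6pc encodes glucose-6-phosphatase, the last step of glucose release. Its values were 971, 471, 407, 587 and 338 normalized CPM in wild-type mice and 446, 567, 367, 883 and 324 in Thrb hep-/- mice. A single mouse of each genotype stood well above its group, wild-type mouse 1 and Thrb hep-/- mouse 4. The log2 fold change of G6pc was -0.10 (SE 0.34, interval -0.85 to 0.65, edgeR adjusted p = 0.938), and it was 0.20 without wild-type mouse 1. Slc37a4, the carrier that delivers glucose-6-phosphate to that enzyme, overlapped just as fully at 223 to 390 and 217 to 404 normalized CPM.

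Fbp1 encodes fructose-1,6-bisphosphatase, and had the narrowest wild-type range of the 6. It was at 1095, 1190, 1135, 1167 and 1174 normalized CPM in wild type and at 1202, 1534, 1183, 1076 and 1404 in Thrb hep-/-. Only Thrb hep-/- mice 1, 2 and 5 were above the highest wild-type mouse. Its log2 fold change was 0.15 (SE 0.11, interval -0.083 to 0.39, edgeR adjusted p = 0.588). Pcx, the pyruvate carboxylase that opens the pathway, ranged from 591 to 745 and from 565 to 726 normalized CPM. The mitochondrial carboxykinase Pck2 was low, at 4.98 to 7.53 and 5.10 to 7.28. Per kilobase of exon, Pck1 was the most abundant of all members, with a wild-type mean of 839 normalized CPM per kb, followed by Fbp1 at 677, while Pck2 was at 0.79.

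Among the 16 glycolytic and fructose members 11 had positive and 5 negative fold changes, and none reached an unadjusted p under 0.05. Pklr encodes the liver pyruvate kinase. It was at 385, 296, 492, 427 and 461 normalized CPM in wild-type mice and at 325, 467, 414, 434 and 499 in Thrb hep-/- mice, with a log2 fold change of 0.053 (SE 0.15, interval -0.26 to 0.37, edgeR adjusted p = 0.925). Apart from the lowest mouse of each group, the values were within 385 to 499. Since 22.0% of the Pklr exon length also lies in the oppositely oriented gene Hcn3, and reads were counted without strand, reads from that stretch could not be assigned to a single gene.

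The glyceraldehyde-3-phosphate dehydrogenase gene Gapdh, a common reference gene, was at 165, 158, 178, 146 and 199 normalized CPM in wild type and at 182, 172, 196, 189 and 181 in Thrb hep-/-. Both extremes were wild-type mice. The log2 fold change was 0.12 (SE 0.089, interval -0.072 to 0.31, edgeR adjusted p = 0.602). Near-identical copies of Gapdh and of several other glycolytic genes exist in the mouse genome, so that part of their reads may not have been counted. Khk, the ketohexokinase that admits fructose, was at 487, 445, 516, 515 and 732 normalized CPM in wild type and 420, 552, 502, 459 and 517 in Thrb hep-/-. Wild-type mouse 5 stood alone, and the Khk fold change of -0.14 (SE 0.13) became -0.00096 without it.

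The closest to a difference in this role were Pgk1, Aldoa, Pfkm and Pkm. Phosphoglycerate kinase gene Pgk1 was at 243 to 276 normalized CPM in wild type and at 252.3 to 314 in Thrb hep-/-, where mice 2 to 5 exceeded all wild-type mice (log2 fold change 0.17, SE 0.082, edgeR adjusted p = 0.391). Aldolase A gene Aldoa gave 0.18 (SE 0.090, adjusted p = 0.399) and the muscle-type phosphofructokinase gene Pfkm 0.18 (SE 0.10, adjusted p = 0.481). The muscle-type pyruvate kinase gene Pkm gave 0.34 (SE 0.21, adjusted p = 0.526). Pkm was at 17.9, 14.7 and 21.7 normalized CPM in the 3 Thrb hep-/- libraries that held adipocyte transcripts and at 12.0 and 9.95 in the other 2, against 8.97 to 15.4 in wild type. Without those 3 libraries the Pkm fold change was -0.13 and that of Aldoa 0.046, whereas that of Pgk1 was 0.24 and that of Pfkm 0.16.

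Both members that encode bifunctional enzymes setting fructose-2,6-bisphosphate had negative fold changes that did not pass the test. Pfkfb1, the liver form, was at 39.2, 35.4, 47.9, 48.0 and 61.9 normalized CPM in wild-type mice and at 36.7, 52.1, 28.1, 22.8 and 44.0 in Thrb hep-/- mice (log2 fold change -0.34, SE 0.22, edgeR adjusted p = 0.557), and its fold change was -0.21 without the 3 libraries with adipocyte transcripts. The inducible form Pfkfb3 ran from 12.3 to 31.1 and from 10.9 to 23.8, with a fold change of -0.16 (SE 0.30) that was 0.074 without wild-type mouse 5. Gckr, the regulatory protein that holds hexokinase IV in the nucleus, ranged from 198 to 277 and from 173 to 271 normalized CPM. For the remaining 6 members of this role, Gpi1, Pfkl, Tpi1, Pgam1, Eno1 and Ldha, the fold changes lay between -0.014 (Pgam1) and 0.086 (Eno1).

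The 3 sugar carriers did not differ beyond the spread between mice. Slc2a2 encodes GLUT2, the main hepatocyte glucose carrier. It was at 489, 326, 407, 449 and 470 normalized CPM in wild-type mice and 406, 516, 419, 410 and 497 in Thrb hep-/- mice, with a log2 fold change of 0.070 (SE 0.12, interval -0.19 to 0.33, edgeR adjusted p = 0.869). Wild-type mouse 2 was the lowest, and the other 9 mice lay between 406 and 516. Slc2a1, the ubiquitous carrier GLUT1, ran from 9.99 to 15.2 and from 10.5 to 13.6 normalized CPM, and Slc2a9, a urate carrier of the same family, from 37.8 to 56.5 and from 36.5 to 54.0. The intervals of all 3 lay within 0.5 of zero.

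Glycogen synthesis held the largest fold changes among members with a mean above 100 normalized CPM. Gys2 (ENSMUSG00000030244, chromosome 6, 142422613-142473109, minus strand, GRCm38) encodes the liver glycogen synthase. It was at 270, 223, 261, 393 and 212 normalized CPM in wild-type mice 1 to 5 and at 322, 408, 394, 316 and 446 in Thrb hep-/- mice 1 to 5. Every Thrb hep-/- mouse exceeded 4 of the 5 wild-type mice, and wild-type mouse 4 alone lay inside the Thrb hep-/- range. The means were 272 ± 71.9 and 377 ± 56.8 normalized CPM (SD, n = 5 each), and the log2 fold change was 0.47 (SE 0.16, interval 0.12 to 0.83, edgeR adjusted p = 0.218). Without wild-type mouse 4 it was 0.64 with an adjusted p of 0.035, and without the 3 libraries with adipocyte transcripts it was 0.57 with an adjusted p of 0.345. With the acute-phase component as a covariate it was 0.25. That component correlated with genotype (r = -0.856 over all libraries), so fits with it cannot tell the 2 apart.

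Ugp2 (ENSMUSG00000001891, chromosome 11, 21321138-21371201, minus strand) encodes UDP-glucose pyrophosphorylase, which makes the UDP-glucose that glycogen synthase uses. Wild-type mice had 338, 241, 292, 246 and 213 normalized CPM and Thrb hep-/- mice 291, 510, 360, 299 and 401. The lowest 2 Thrb hep-/- mice lay among the upper wild-type values. Means were 266 ± 49.3 and 372 ± 89.2 normalized CPM (SD, n = 5 each), with a log2 fold change of 0.48 (SE 0.17, interval 0.12 to 0.85, edgeR adjusted p = 0.213). The value was 0.56 with an adjusted p of 0.129 without Thrb hep-/- mouse 1, 0.59 with 0.124 without wild-type mouse 1, 0.35 with 0.287 without Thrb hep-/- mouse 2, and 0.72 with 0.202 without the 3 libraries with adipocyte transcripts. With the acute-phase component as a covariate it was 0.62. Gys2 and Ugp2 had a positive fold change in every fit run, with and without each mouse, and passed the threshold in few of them (Gys2 in 3 and Ugp2 in 4 of 18 alternative fits).

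For the other enzymes of glycogen turnover the differences were within the spread between mice. Pygl, the liver glycogen phosphorylase, was at 537, 494, 594, 540 and 565 normalized CPM in wild type and at 463, 598, 545, 543 and 622 in Thrb hep-/-. Both the lowest and the highest value were Thrb hep-/- mice, and the log2 fold change was 0.022 (SE 0.098, interval -0.19 to 0.23, edgeR adjusted p = 0.951). The branching enzyme gene Gbe1 ranged from 101.9 to 125 and from 109 to 128 normalized CPM. The phosphorylase kinase subunit genes Phka2 and Phkg2 had fold changes of -0.13 (SE 0.12) and -0.038 (SE 0.14). For Phkg2, 21.9% of the exon length overlaps the oppositely oriented gene Ccdc189.

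Among the glycogen members, the protein phosphatase 1 subunits that bring the phosphatase to glycogen varied most between mice. Ppp1r3b, the main hepatic subunit, was at 202, 203, 118, 129 and 578 normalized CPM in wild type and 116, 207, 190, 323 and 143 in Thrb hep-/-. Wild-type mouse 5 was far above the rest, and the log2 fold change of -0.33 (SE 0.46, edgeR adjusted p = 0.824) turned to 0.27 without it. Ppp1r3c ranged from 23.3 to 45.9 and from 20.1 to 62.8 normalized CPM, with a fold change of 0.12 (SE 0.29). Ppp1r3g was low, at 1.97, 0.210, 0.643, 0.625 and 0.187 normalized CPM in wild type and 1.08, 1.31, 1.85, 0.728 and 5.34 in Thrb hep-/-. In wild type 4 mice lay below all Thrb hep-/- mice, and the log2 fold change was 1.51 (SE 0.70, interval -0.057 to 3.07, edgeR adjusted p = 0.388). The gene met the filter of 1 CPM in 5 libraries at its minimum, through wild-type mouse 1 and every Thrb hep-/- mouse except mouse 4. Without the 3 libraries with adipocyte transcripts Ppp1r3g missed the filter on low counts, and no fold change was fitted.

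**Figure D2:**
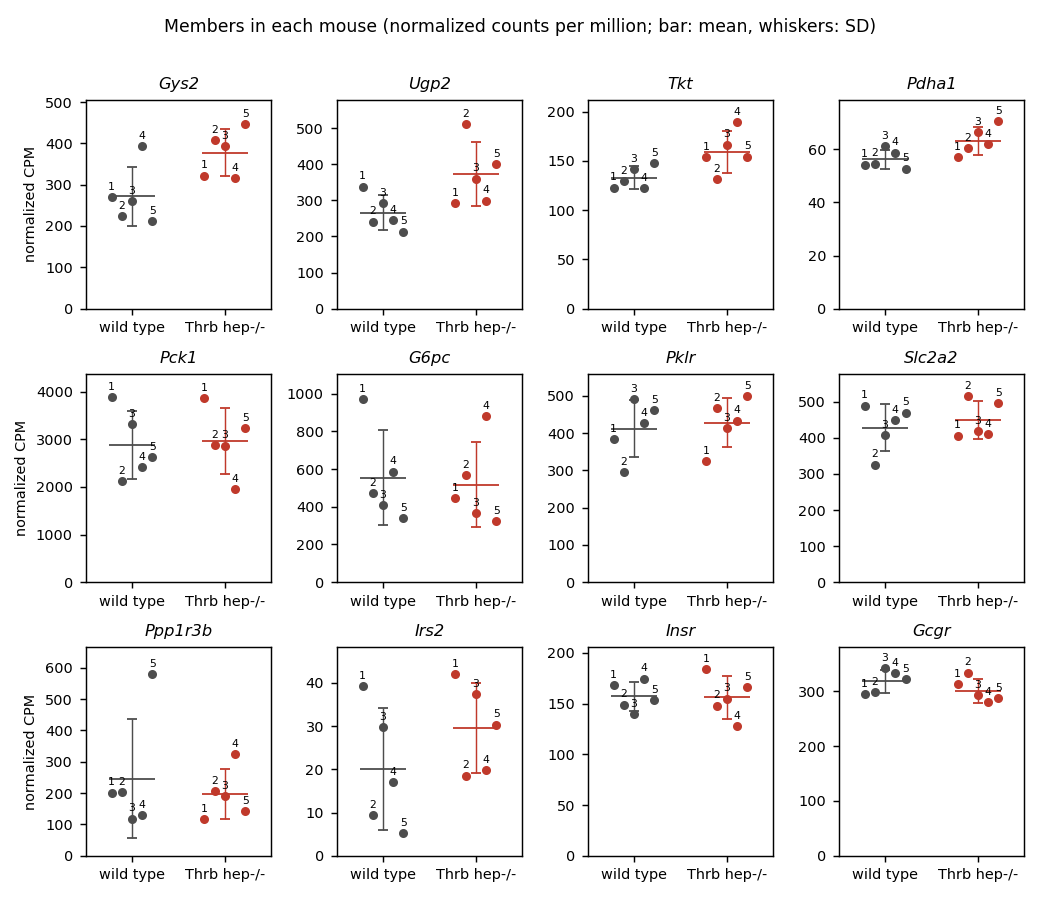
Normalized CPM (y axis, from 0) of 12 members in each mouse, with the mouse number at each point, the mean as a bar and the SD as whiskers. Gys2 and Ugp2 sit higher in Thrb hep-/- with overlapping points, Pck1 covers nearly the same range in both genotypes, Slc2a2 overlaps with 2 Thrb hep-/- mice above all wild-type mice, and Ppp1r3b has a single high wild-type mouse at 578.

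In the pentose phosphate pathway 1 of 4 members had an unadjusted p under 0.05. Tkt (ENSMUSG00000021957, chromosome 14, 30548359-30574720, plus strand) encodes transketolase of the non-oxidative branch. It was at 123, 130, 142, 122 and 148 normalized CPM in wild type and at 154, 131, 167, 189 and 154 in Thrb hep-/-. Only Thrb hep-/- mouse 2 lay within the wild-type range. The log2 fold change was 0.26 (SE 0.10, interval 0.043 to 0.48, edgeR adjusted p = 0.275), and it was 0.33 with an adjusted p of 0.111 without that mouse. It was 0.17 without the 3 libraries with adipocyte transcripts and -0.014 with the acute-phase component as a covariate.

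G6pdx, the glucose-6-phosphate dehydrogenase that feeds NADPH to lipid synthesis, was low at 3.94, 5.38, 6.22, 3.20 and 8.27 normalized CPM in wild type and 7.68, 2.66, 5.15, 5.79 and 5.30 in Thrb hep-/-. The values spread 2.58-fold in wild type and 2.88-fold in Thrb hep-/-, and the fold change of -0.023 (SE 0.29, edgeR adjusted p = 0.984) had an interval from -0.65 to 0.61. The X-linked neighbour Ikbkg, with 19179 counts in all against 1502 for G6pdx, overlaps 13.6% of the G6pdx exon length on the opposite strand. Pgd, the next dehydrogenase, ranged from 50.7 to 81.5 and from 50.2 to 71.1 normalized CPM. Taldo1, transaldolase, had the smallest error of all members, with a fold change of 0.047 (SE 0.068).

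At pyruvate dehydrogenase, the gate from glycolysis to the mitochondrion, the 3 members all had positive fold changes and none passed the threshold. Pdha1 (ENSMUSG00000031299, chromosome X, 160122209-160138413, minus strand) encodes the catalytic E1 alpha subunit. It was at 54.2, 54.6, 61.3, 58.8 and 52.7 normalized CPM in wild type and 57.1, 60.4, 66.5, 61.9 and 70.5 in Thrb hep-/-. The ranges overlapped between 57.1 and 61.3. The log2 fold change was 0.17 (SE 0.075, interval 0.0049 to 0.33, edgeR adjusted p = 0.354), and -0.032 with the acute-phase component as a covariate. Without the 3 libraries with adipocyte transcripts it was 0.18, with an adjusted p of 0.493. Part of its exon length (16.1%) lies in Map3k15 on the opposite strand, which had 238 counts in all. The kinases that inactivate the complex, Pdk1 and Pdk2, gave 0.17 (SE 0.14) and 0.068 (SE 0.11).

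None of the 6 hormone signalling members differed at an unadjusted p under 0.05. The insulin receptor gene Insr was at 169, 149, 140, 175 and 154 normalized CPM in wild type and 184, 148, 155, 128 and 166 in Thrb hep-/-, with a log2 fold change of -0.0095 (SE 0.10, interval -0.23 to 0.21, edgeR adjusted p = 0.981). The glucagon receptor gene Gcgr was at 295, 299, 343, 333 and 322 and at 313, 334, 293, 280 and 287, with a fold change of -0.080 (SE 0.082, interval -0.26 to 0.098, adjusted p = 0.737). Insr values of wild-type mice lay inside the Thrb hep-/- range, whereas for Gcgr Thrb hep-/- mice 3, 4 and 5 were below every wild-type mouse and wild-type mouse 3 was above every Thrb hep-/- mouse.

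The insulin receptor substrates differed in steadiness. Irs2 was at 39.2, 9.34, 29.7, 17.0 and 5.28 normalized CPM in wild type and 42.0, 18.6, 37.4, 19.8 and 30.3 in Thrb hep-/-. The wild-type values spanned 7.43-fold and the Thrb hep-/- values 2.26-fold, and the log2 fold change was 0.56 (SE 0.50, interval -0.57 to 1.68, edgeR adjusted p = 0.691), or 0.49 without the 3 libraries with adipocyte transcripts. Irs1 was low and narrow, at 5.31 to 6.96 and 4.76 to 7.43 normalized CPM, and 30.9% of its exon length overlaps the oppositely oriented Gm9747, which had 0 counts. Foxo1, the forkhead factor that insulin excludes from the nucleus, ran from 34.2 to 45.0 and from 36.9 to 51.7 normalized CPM. Ppargc1a, a coactivator of gluconeogenic genes, ran from 6.40 to 9.13 and from 3.91 to 9.15.

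For some members that encode related forms of a protein, the balance within each liver was compared per kilobase of exon. The pairs were picked after their values were seen, and no test was run. Liver pyruvate kinase Pklr stood at 32.9 to 66.4 times the level of Pkm in wild type and at 28.0 to 64.4 times in Thrb hep-/-. Pck1 stood at 701 to 1209 and at 611 to 1571 times the level of Pck2. For the GLUT2 gene Slc2a2 over the GLUT1 gene Slc2a1 the ratios were 18.1 to 29.8 and 18.2 to 29.9. The phosphofructokinase genes Pfkl and Pfkm had per-kilobase ratios of 0.964 to 1.23 and 0.981 to 1.23. These rest on exon lengths of 6675 and 3340 bases, merged over all annotated transcripts, and so depend on the annotation. Before that scaling the wild-type means were 45.3 normalized CPM for Pfkl and 19.7 for Pfkm, and the Thrb hep-/- means 47.4 and 22.2. The Pck1 to Pck2 ratio depends on exon length in the same way (3429 and 7806 bases). The Irs2 to Irs1 ratio ran widely, at 1.44 to 9.08 and 4.13 to 8.29. In every one of these pairs the ranges of the 2 genotypes overlapped.

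At the median, the members varied between mice of the same genotype about as much as, or slightly more than, other genes. The median SD within genotype was 0.217 on the log2 scale, against 0.192 over all tested genes, and 29 of the 47 members were above the latter. An SD over 0.5 was seen for 7 of the 47 members, namely G6pc, Pfkfb3, Ppp1r3b, Ppp1r3c, Ppp1r3g, G6pdx and Irs2. That is a larger share than the 6.34% of all genes, and the difference was not tested. These 7 act in glucose release, control of fructose-2,6-bisphosphate, glycogen targeting, NADPH supply and insulin signalling.

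Single mice took the extreme values unevenly. Wild-type mouse 5 was the highest or lowest of the 10 mice in 19 of 47 members (40.4%), against 24.8% of all tested genes. It was highest in 12, among them Khk, Ppp1r3b, Pfkfb1, Pfkfb3, G6pdx and Pgd, and lowest in 7, among them Irs2, Gys2 and Ugp2. On the first component of 17 clock genes the same mouse scored 4.83, above the other 9 mice at -4.17 to 2.87, and the part of this in its values was not tested. With that component as a covariate no member passed the threshold (548 genes, 4.48%). Thrb hep-/- mouse 4 was extreme in 18 members (38.3%, against 24.9% of all genes) and Thrb hep-/- mouse 3 in 2. Without wild-type mouse 5 the median fold change of the members was 0.070.

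**Figure D3:**
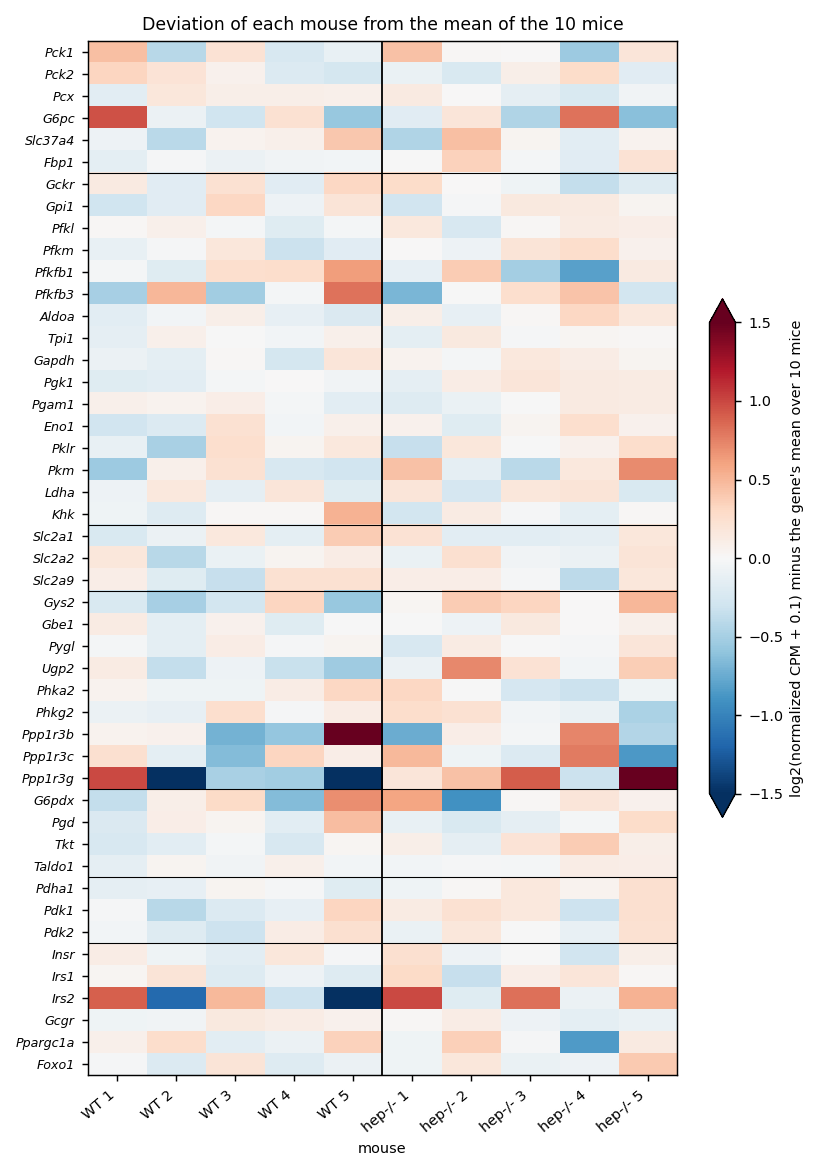
Difference of each mouse (columns) from the mean of the 10 mice for each member (rows, in order of role), as log2 of normalized CPM plus 0.1. Colours beyond 1.5 are saturated, and the strongest ones stand in Ppp1r3b, Ppp1r3g and Irs2 and in wild-type mouse 5.

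A further 152 genes of the same pathways were listed, of which 130 were tested and 6 passed the threshold (4.62%, beside 4.08% of all genes), 4 higher and 2 lower in Thrb hep-/-. At an unadjusted p under 0.05 there were 22, or 16.9%, beside 13.6% of all genes. Their median log2 fold change was 0.016. No gene passed among the 17 tested glycogen genes, 6 pentose phosphate genes and 6 sugar carriers of these lists (4 of them, all told, had an unadjusted p under 0.05). All 6 calls were lost with the acute-phase component as a covariate (6 genes called of all tested, 0.049%) and without the 3 libraries with adipocyte transcripts (173 genes called, 1.45%). With the acute-phase component the log2 fold changes were 0.59 for Pdp2, 0.68 for Ldhb, 0.14 for Gsk3a, 0.38 for Txnip, -0.34 for Akt1 and -0.22 for Srebf1, so those of Pdp2 and Akt1 were no smaller than before and that of Srebf1 moved most.

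Of the 10 tested pyruvate genes outside the members, 8 had positive fold changes, beside 50.1% of all tested genes. This list was drawn up with earlier results of these data known. An unadjusted p under 0.05 was found for 5 of the 10, all higher, beside 6.15% of all tested genes. Pdp2, a phosphatase that reactivates pyruvate dehydrogenase, was the one that passed. It was at 44.8, 36.8, 43.6, 48.6 and 43.4 normalized CPM in wild type and 76.2, 59.7, 55.7, 51.4 and 63.4 in Thrb hep-/-, without overlap. Its means were 43.4 ± 4.24 and 61.3 ± 9.47 (SD, n = 5 each), the log2 fold change was 0.50 (SE 0.11) and the edgeR adjusted p was 0.045. Without the 3 libraries with adipocyte transcripts the fold change was 0.42, with an adjusted p of 0.190. Pdhx, the E3-binding subunit of the complex, gave 0.31 (SE 0.11, adjusted p = 0.246), and 0.29 without those libraries. Its sign reversed with the acute-phase component as a covariate. The starvation-induced kinase Pdk4 was at 1.05 to 2.0 normalized CPM in wild type and at 6.08, 1.35, 2.40, 2.88 and 11.7 in Thrb hep-/- (log2 fold change 1.61, SE 0.53, adjusted p = 0.210), and its highest 3 values were the 3 libraries with adipocyte transcripts. Without them the Pdk4 fold change was 0.24, with an adjusted p of 0.787.

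Lactate handling included another gene that passed. Ldhb, the heart-type lactate dehydrogenase subunit, was at 1.48, 1.47, 1.29, 1.48 and 1.42 normalized CPM in wild type and 2.29, 1.76, 2.09, 2.98 and 3.68 in Thrb hep-/-. The groups did not overlap, and the log2 fold change was 0.84 (SE 0.20, edgeR adjusted p = 0.070). The 3 highest values were again those of mice 1, 4 and 5, and without them it was 0.44 with an adjusted p of 0.421, the remaining 2 values still above all wild-type mice. The lactate and pyruvate carrier gene Slc16a1 gave 0.32 (SE 0.11, adjusted p = 0.213), and 0.18 without the 3 libraries. The part of adipocyte transcripts in the values of Ldhb, Pdk4 and Pkm was not tested beyond these fits.

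**Figure D4:**
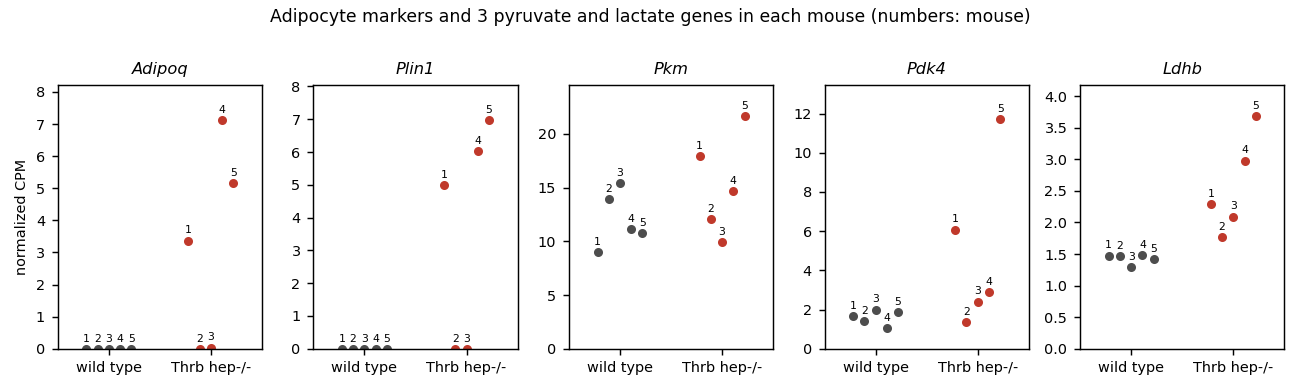
Normalized CPM (y axis, from 0) of the adipocyte genes Adipoq and Plin1 and of Pkm, Pdk4 and Ldhb in each mouse, with the mouse number at each point. Mice 1, 4 and 5 of the Thrb hep-/- group carry Adipoq at 3.37 to 7.12 and are also the highest of their group for Pkm, Pdk4 and Ldhb.

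Of the 67 tested signalling and sensing genes outside the members, 4 passed, which is 5.97%, beside 4.08% of all tested genes. Akt1, a kinase of the insulin pathway, fell in Thrb hep-/-, from 77.4, 81.3, 77.2, 79.8 and 98.2 normalized CPM in wild type to 62.6, 63.6, 66.9, 73.3 and 64.9 (log2 fold change -0.32, SE 0.082, edgeR adjusted p = 0.079). Gsk3a, a kinase that inhibits glycogen synthase, rose from 27.5, 26.5, 27.7, 27.1 and 23.6 to 33.2, 30.4, 32.4, 33.4 and 28.8 (0.26, SE 0.072, adjusted p = 0.108). Neither gene overlapped between the groups, which was also so for 3.64% of all tested genes. Without the 3 libraries with adipocyte transcripts the adjusted p was 0.302 for Akt1 and 0.342 for Gsk3a, with fold changes of -0.34 and 0.26. Wild-type mouse 5 was the highest for Akt1, and without it the Akt1 fold change was -0.25 with an adjusted p of 0.181.

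Srebf1, the transcription factor of insulin-driven lipid synthesis, was lower in Thrb hep-/-. It was at 341, 533, 383, 315 and 764 normalized CPM in wild type and 283, 241, 213, 241 and 315 in Thrb hep-/-, with a log2 fold change of -0.85 (SE 0.23, edgeR adjusted p = 0.102). The lowest wild-type and the highest Thrb hep-/- mouse met at 315. Without wild-type mouse 5 the fold change was -0.60 and still passed. Txnip, an arrestin-family protein that glucose induces and that restrains glucose uptake, rose from 64.3, 28.8, 69.1, 67.6 and 47.2 to 69.6, 141, 133, 100.4 and 86.5 normalized CPM (0.94, SE 0.26, adjusted p = 0.131). The highest wild-type and the lowest Thrb hep-/- values of Txnip nearly touched. Without the 3 libraries with adipocyte transcripts the fold changes were -1.03 for Srebf1 and 1.31 for Txnip, with adjusted p of 0.315 and 0.159.

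**Figure D5:**
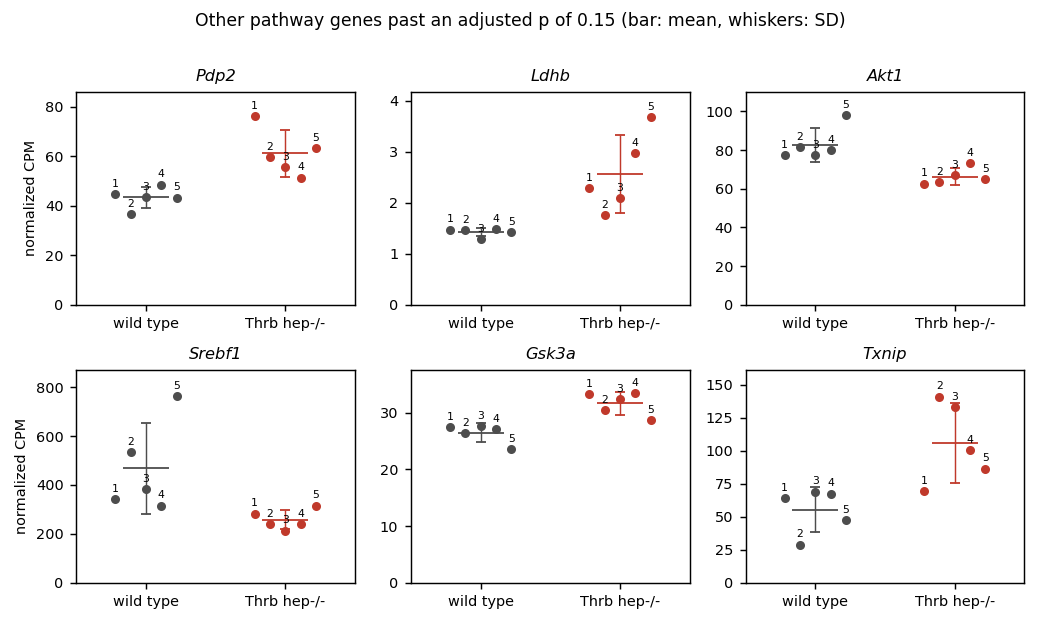
Normalized CPM (y axis, from 0) in each mouse of the 6 pathway genes outside the members that passed an adjusted p of 0.15, with means as bars and SD as whiskers. Pdp2, Ldhb, Gsk3a and Txnip are higher and Akt1 and Srebf1 lower in Thrb hep-/-, and only Srebf1 overlaps between groups.

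The count of 6 depended on single mice. Over the 10 fits without a single mouse it ran from 1 to 8, and the fits above 6 called genes outside these 6. It was 2 without Thrb hep-/- mouse 3, 3 without Thrb hep-/- mouse 4 and 1 without wild-type mouse 2 (Pdp2). Without wild-type mouse 5 it was 3, namely Pdp2, Srebf1 and a gene that is not among the 6. Pdp2 passed in all 10 fits without a single mouse. Ldhb was lost without wild-type mouse 2 or 5, Akt1 without either of these or Thrb hep-/- mouse 3 or 5, and Srebf1 without wild-type mouse 2 or Thrb hep-/- mouse 2, 3 or 4. The call of Gsk3a was lost in 6 and that of Txnip in 8 of the 10 fits. Of glycogen genes outside the members, Stbd1, which tethers glycogen to membranes, was at 88.0 to 110 normalized CPM in wild type and 107 to 122 in Thrb hep-/- (log2 fold change 0.22, SE 0.076, edgeR adjusted p = 0.219; 0.29 without the 3 libraries with adipocyte transcripts). Nhlrc1, the ubiquitin ligase malin, was at 1.13 to 1.68 and 0.637 to 1.09 without overlap (-0.57, SE 0.20, adjusted p = 0.227), or -0.39 without the 3 libraries. Both were of the same order as Gys2 and Ugp2 in their adjusted p.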

How the data were processed

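Liver RNA-seq of 5 wild-type and 5 Thrb hep-/- mice was taken as the authors deposited it, as raw read counts per Ensembl gene. Per the labels and the study's methods, DNBSEQ reads were mapped on GRCm38/mm10 with HISAT2 2.2.1 and counted with HTSeq 0.9.1 without strand, at an alignment quality of at least 10. The deposited table of the authors' own comparison (fold changes and p-values) was not used. Members were matched by symbol through GENCODE M21; 2 identifiers carry the symbol Aldoa, and the abundant one was kept (the other had at most 3 counts per library).

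Genes reaching 1 CPM in 5 or more libraries entered a fit in edgeR 4.0.16 (TMM, robust quasi-likelihood F-test), with Benjamini-Hochberg adjustment over all tested genes and a threshold of 0.15, as in the study's methods. SE is the absolute log2 fold change over the square root of F. Scripts were tested on simulated data. Alternatives were DESeq2 1.42.0, limma-voom 3.58.1, other scaling, no filter, a stricter threshold, a replicate block, clock and acute-phase components, and omission of each mouse; omission of the 3 libraries with Adipoq was chosen after seeing the data. All members could be named; other pathway genes were named if past the threshold, plus at most 5 by lowest unadjusted p. Members and lists were chosen with earlier results of these data known, and list counts are descriptions. Promoter sequences are from RefSeq (GRCm38.p6).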

Additional observations from a re-analysis of the deposited data

Results flagged for a closer look

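In 7 of 108 groups of 5 mice, a group being 1 gene in 1 genotype, the highest or lowest mouse lay apart from the other 4 by Dixon's test at the 95% level, where chance gives 5.4. Wild-type mouse 5 accounted for 3 of them. It had Khk at 732 normalized CPM against 445 to 516 in the other wild-type mice, Ppp1r3b at 578 against 118 to 203, and Akt1 at 98.2 against 77.2 to 81.3. Wild-type mouse 1 had Ppp1r3g at 1.97 against 0.187 to 0.643. Among the Thrb hep-/- mice, mouse 1 had Pgk1 at 252.3 against 298 to 314, mouse 4 had Pdk1 at 70.3 against 95.4 to 103, and mouse 5 had Ppp1r3g at 5.34 against 0.728 to 1.85. Without the mouse concerned the log2 fold change was -0.00096 for Khk, 0.27 for Ppp1r3b, 0.22 for Pgk1 and 0.25 for Pdk1, and none of these passed the threshold. Without wild-type mouse 5 that of Akt1 was -0.25, with an edgeR adjusted p of 0.181, and its call was lost. Without either mouse named for Ppp1r3g, that gene missed the filter on low counts.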

How the results depend on the processing

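The count of members past the threshold was 2 with DESeq2 and 3 with limma-voom, 0 to 1 without single mice, and 0 in every other fit, including an adjusted p of 0.05, DESeq2's size factors in edgeR, no filter, either component and the omission of the 3 libraries with Adipoq. Their median fold change ran from -0.0020 (without wild-type mouse 2) to 0.070. Over all genes the count was 165 at an adjusted p of 0.05, 885 with DESeq2, 880 with limma-voom, 6 with the acute-phase component, 173 without the 3 libraries with Adipoq and 222 to 665 without single mice. For the other pathway genes it was 13 with DESeq2, 0 with the acute-phase component, 3 without a filter, 0 without the 3 libraries and 1 to 8 without single mice. The acute-phase component correlated with genotype (r = -0.856 over the 10 libraries, a description), so the fit with it cannot tell the 2 apart.

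Replicate numbers gave no pairing of mice. Deviations of same-numbered libraries correlated at -0.20 to 0.0091, and 0 of 5 matched best with its own number. With a replicate block 0 members, 348 genes and 3 other pathway genes passed.

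Signs were kept in every fit by 10 of 47 members, Fbp1, Gapdh, Khk, Gys2, Ugp2, Ppp1r3g, Pdk1, Pdk2, Gcgr and Foxo1. For Ppp1r3g this covers only the 12 of 18 alternative fits where it passed the filter on low counts. Fits without a mouse that carried it past that filter could not check its sign. With the acute-phase component the fold changes reversed for Pcx (0.056), Slc37a4 (0.022), Gckr (0.033), Gpi1 (-0.40), Pfkm (-0.11), Pfkfb1 (0.083), Pfkfb3 (0.029), Aldoa (-0.077), Pgk1 (-0.015), Eno1 (-0.31), Pklr (-0.29), Ldha (-0.11), Slc2a1 (0.034), Slc2a9 (0.34), Gbe1 (-0.063), Pygl (-0.091), Phka2 (0.23), Ppp1r3b (0.12), Tkt (-0.014), Taldo1 (-0.0022), Pdha1 (-0.032), Insr (0.18), Irs2 (-0.052), Ppargc1a (0.59) and Pdhx (-0.021), and with the clock component for Slc37a4 (0.066), Ldha (-0.028) and Slc2a9 (0.025). Without the 3 libraries with Adipoq they reversed for Slc37a4 (0.23), Pfkl (-0.070), Eno1 (-0.027), Pkm (-0.13), Ldha (-0.016), Slc2a9 (0.027), Phkg2 (0.069), Ppp1r3c (-0.14), Irs1 (-0.062) and Ppargc1a (0.084), with limma-voom for Slc37a4 (0.0072), Pgam1 (0.0051), Ppp1r3c (-0.044) and G6pdx (0.052), and without a filter for Gpi1 (-0.0012). The fits of single genes with either component or without the 3 libraries were added after seeing the data. Without single mice they reversed for 21 members, whose fold changes ran from -0.38 to 0.20 for G6pc, -0.19 to 0.18 for G6pdx, -0.063 to 0.086 for Gpi1, -0.076 to 0.055 for Insr, -0.018 to 0.097 for Ldha, -0.074 to 0.17 for Pck1, -0.14 to 0.027 for Pck2, -0.29 to 0.074 for Pfkfb3, -0.052 to 0.030 for Pgam1, -0.19 to 0.016 for Pgd, -0.11 to 0.059 for Phkg2, -0.044 to 0.14 for Pklr, -0.26 to 0.0054 for Ppargc1a, -0.58 to 0.27 for Ppp1r3b, -0.097 to 0.29 for Ppp1r3c, -0.022 to 0.080 for Pygl, -0.095 to 0.069 for Slc2a1, -0.013 to 0.12 for Slc2a2, -0.099 to 0.066 for Slc2a9, -0.14 to 0.093 for Slc37a4 and -0.016 to 0.049 for Tpi1. None of these reversed values passed the threshold, and the cause of the reversals was not tested.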

Other observations

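Other marker lists were read once as a description. The 6 Kupffer cell and leukocyte genes all had negative fold changes (median -0.57, none past the threshold), with summed levels of 103 to 338 normalized CPM in wild type and 117 to 242 in Thrb hep-/-. The 6 stellate cell genes all had positive ones (median 0.26, 1 past the threshold), at 82.0 to 125 and 112 to 134. The 5 erythroid genes had 4 negative values (sums 191 to 308 and 149 to 232), the 3 tested cholangiocyte genes were all negative (24.6 to 46.4 and 24.0 to 28.6), and the 6 endothelial genes split evenly (133 to 158 and 135 to 172), with none past the threshold in these 3 lists. The 7 muscle genes summed to under 0.9 normalized CPM in each library and Ins2 was at 0 counts in all 10. Of the 8 hepatocyte genes 5 had positive fold changes and none passed. Of the 17 tested clock genes 11 had positive fold changes and none passed. Of 5 thyroid hormone target genes 4 had negative fold changes, Dio1 passed as lower (log2 fold change -3.03, SE 0.18) and Me1, malic enzyme, as higher (0.79, SE 0.19; edgeR adjusted p = 0.065).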
